A study of Mus musculus with 59 samples.

Results

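The collagen chain genes encode the polypeptide chains from which all collagens of a tissue are built. Every row of the expression table whose symbol was Col followed by a number, the letter a and a number was taken, which gave 44 genes of the 47643 in the table. Of these, 33 had a mean of at least 1 TPM (a transcript level corrected for length, with all libraries brought to a common sum) in at least 1 of 8 sample groups and entered the tests, in which 13974 genes were tested. The other 11 stayed below that mean in every group. By structural class, the tests held 10 of 11 fibrillar chains, 5 of 6 basement membrane (type IV) chains, 5 of 6 beaded-filament (type VI) chains, 5 of 9 FACIT chains (fibril-associated collagens with interrupted triple helices), both multiplexins, 2 of 3 short-chain network chains, 2 of 4 transmembrane chains, the anchoring fibril chain Col7a1, and Col28a1 of the 2 remaining chains.

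RNA-seq libraries were made from muscle of female mice of the NCI Ath/nude strain at 4 months of age, a strain without a thymus that keeps few mature T cells but has fibroblasts, tendon cells and other stromal cells. Every mouse carried a human melanoma xenograft, either a cachectic (CAC) melanoma, which causes body wasting, or a non-cachectic (NONCAC) melanoma, which does not, and no tumour-free mice were analysed here. Each melanoma was a single patient-derived tumour line, so the 2 tumours and the wasting state cannot be told apart. The diaphragm groups were non-cachectic mock (n = 9), cachectic mock (n = 10), non-cachectic rFibcd1 (n = 10) and cachectic rFibcd1 (n = 10), where rFibcd1 is recombinant Fibcd1, a fibrinogen-domain protein given by intraperitoneal injection, and mock is the same injection with serum albumin. Tibialis anterior (TA), a fast limb muscle, and soleus, a slow limb muscle, came from mice with the non-cachectic or the cachectic melanoma (n = 5 per group), with no rFibcd1 named in their labels. For both cachectic diaphragm groups the study states fewer diaphragms in its RNA-seq than the libraries used here. The labels call the samples biological replicates and give no animal identity, so p-values measure the spread between these samples.

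Collagens are secreted as triple helices of like or unlike chains. In muscle, fibrillar collagens form the fibres of tendon and of the connective tissue around fascicles, type IV forms the sheet of the basement membrane around each myofibre and vessel, and type VI forms microfilaments that join that sheet to the matrix outside it. Most of the fibrillar and type VI chains are made by fibroblasts, among them the fibro-adipogenic progenitors, and by tendon cells, whereas endothelial cells, mural cells and myofibres also contribute type IV. Loss-of-function variants of Col6a1, Col6a2 and Col6a3 are known to cause muscular dystrophy, and excess fibrillar collagen is the hallmark of muscle fibrosis.

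Some promoters are shown first, because the results below turn on the genes they belong to: the type XI chains Col11a1 and Col11a2, which fell together in the cachectic soleus, Col3a1, a fibrillar chain that was not called there, and Col5a3, which was called higher with rFibcd1 in 1 of 2 comparisons, that with the non-cachectic melanoma. Each line gives the 250 bases before the transcription start on the gene's own strand, from RefSeq on GRCm38.p6. Capitals mark matches to 3 motifs or to their reverse complements. The CCAAT box was searched as CCAAT, the TATA box as the letters TATAAA, and the GC box was read as GGGCGG. No marked matches overlapped.
Col11a1 (chr3:114030290-114030539, plus strand): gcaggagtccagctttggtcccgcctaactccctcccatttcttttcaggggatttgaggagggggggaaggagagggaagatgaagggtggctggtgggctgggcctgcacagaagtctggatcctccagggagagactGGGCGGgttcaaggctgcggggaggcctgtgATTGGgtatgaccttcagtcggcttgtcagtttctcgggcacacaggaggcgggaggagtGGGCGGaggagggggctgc
Col11a2 (chr17:34038888-34039137, plus strand): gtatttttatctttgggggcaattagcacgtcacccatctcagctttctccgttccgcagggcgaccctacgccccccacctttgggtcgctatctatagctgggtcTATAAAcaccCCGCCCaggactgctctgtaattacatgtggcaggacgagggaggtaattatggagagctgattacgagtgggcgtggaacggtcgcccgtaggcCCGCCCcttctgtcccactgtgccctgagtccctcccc
Col3a1 (chr1:45311288-45311537, plus strand): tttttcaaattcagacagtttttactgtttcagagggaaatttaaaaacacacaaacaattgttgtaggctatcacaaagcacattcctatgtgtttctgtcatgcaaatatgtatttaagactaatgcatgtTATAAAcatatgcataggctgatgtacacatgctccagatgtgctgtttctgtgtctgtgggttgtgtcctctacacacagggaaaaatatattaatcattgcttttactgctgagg
Col5a3 (chr9:20815068-20815317, minus strand): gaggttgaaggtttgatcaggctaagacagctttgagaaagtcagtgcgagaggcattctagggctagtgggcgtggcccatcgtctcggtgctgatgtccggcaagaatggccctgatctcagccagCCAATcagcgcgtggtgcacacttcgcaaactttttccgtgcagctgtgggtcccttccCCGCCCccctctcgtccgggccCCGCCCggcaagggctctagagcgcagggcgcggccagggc
The windows before both type XI chains held GC-box letters. CCAAT was read before Col11a1 and TATAAA before Col11a2, so the pair differed in that respect. The window before Col3a1 held TATAAA alone, and that before Col5a3 held CCAAT and GC-box letters. RefSeq windows were at hand for 35 of the 44 genes (38 windows). Counting both strands, 34.2% of the member windows held CCAAT against 33.8% of all 32851 windows, 13.2% held TATAAA against 12.4%, and 57.9% held GGGCGG against 32.7%. These are letter matches and describe no binding.

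Several members lie side by side in the genome (GENCODE M21 annotation, GRCm38). Col4a1 (chr8:11198423-11312826, minus strand) and Col4a2 (chr8:11312805-11449287, plus strand) are transcribed away from each other and their annotated ends overlap by 22 bases. Col6a2 (chr10:76595762-76623630) and Col6a1 (chr10:76708792-76726168) follow each other on the minus strand, and Col3a1 (chr1:45311538-45349706, plus strand) and Col5a2 (chr1:45374321-45503282, minus strand) face each other with their 3′ ends. In all, 8 such neighbouring pairs were found, among them Col6a6 with Col6a5 and Col4a6 with Col4a5.

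The libraries differed in ways that bear on every comparison. The pseudogene Pcna-ps2 was at no less than 5.60 TPM in 36 libraries (the high state) and at no more than 0.428 TPM in 23 (the low state). In TA and soleus all 5 cachectic libraries were in the high state and all 5 non-cachectic ones in the low state, so this split and the melanoma cannot be told apart there. In the diaphragm it crossed the groups, with 9 of 10 cachectic mock, 8 of 10 cachectic rFibcd1, 3 of 9 non-cachectic mock and 6 of 10 non-cachectic rFibcd1 libraries in the high state. Within the diaphragm, 12 of the 33 members were higher in the high state and 0 lower in limma, at 0.85 on the log2 scale for Col3a1, whereas 8252 of 13974 genes were called either way. The number of reads cannot be recovered from TPM. A value above 0 was found for 17950 to 19456 genes in the diaphragm, for 16436 to 17673 in TA and for 17514 to 18191 in soleus, and no 2 libraries held the same values.

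Collagen transcripts made up a far larger part of the diaphragm and soleus libraries than of the TA libraries. With the non-cachectic melanoma and no rFibcd1, the 44 chains summed to 655 ± 118 TPM (SD, n = 9) in the diaphragm (lowest 480.3, median 709.7, highest 799.7). In TA the 5 libraries summed to 157, 158, 225, 257 and 273 TPM, and in soleus to 457, 521, 560, 650 and 817 TPM. Every TA library lay below every diaphragm and soleus library, whereas diaphragm and soleus overlapped.

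The leading chains also differed between muscles. Col3a1, the chain of the homotrimeric type III collagen of elastic, loose connective tissue, took 18.7% ± 1.6 (SD, n = 9) of collagen TPM in the non-cachectic mock diaphragm and was the most abundant member there. Col1a1, the main chain of type I collagen, the load-bearing fibre of tendon, led in the non-cachectic soleus with 19.4% ± 1.3 (SD, n = 5), followed by Col1a2, its partner chain, with 16.2% ± 0.70 (SD, n = 5). Col4a1, the main basement membrane chain, led in the non-cachectic TA with 15.6% ± 2.2 (SD, n = 5), and Col4a2, its partner, came next with 12.99% ± 2.1 (SD, n = 5). The share of fibrillar chains was 43.2% in the diaphragm, 40.3% in TA and 53.5% in soleus. The plot of class shares sets these side by side in the 8 groups.

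**Figure D1:**
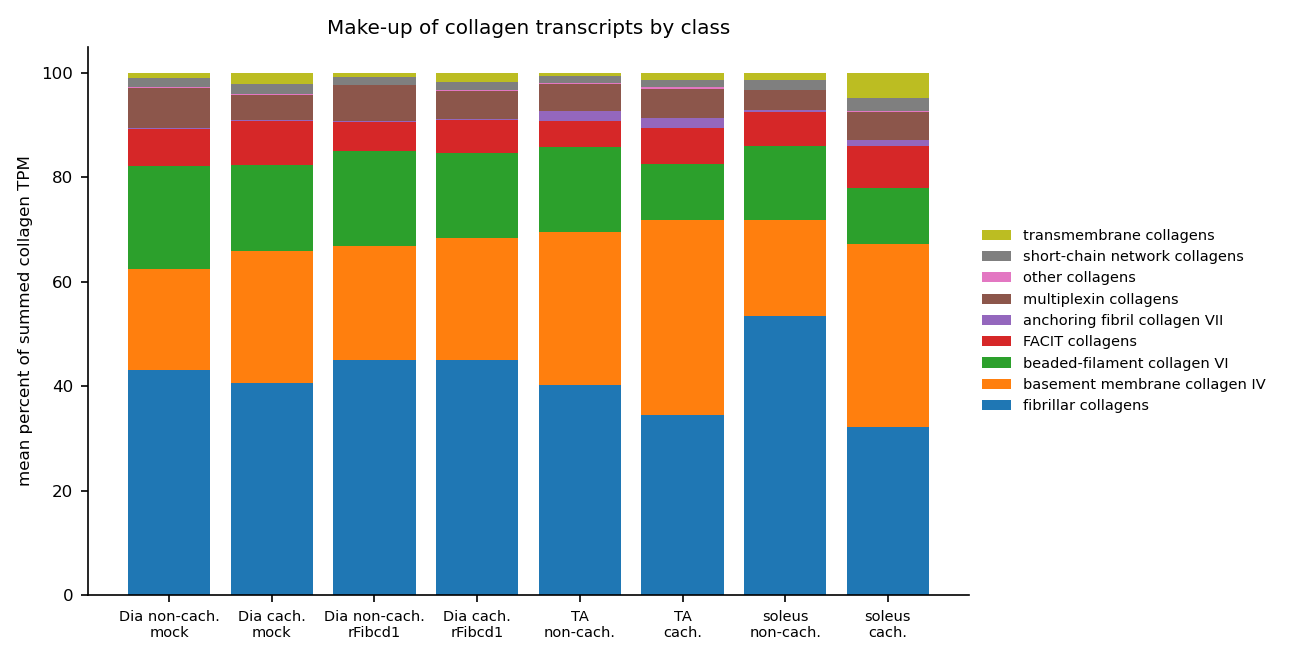
Mean share of collagen TPM (y axis, percent of the sum over 44 chains) held by each structural class in each of the 8 groups (x axis, stacked bars). The fibrillar share is 53.5% in the non-cachectic soleus and 32.2% in the cachectic soleus, and the type IV share is 18.4% and 35.1% in the same groups.

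Between the non-cachectic groups, compared in a limma fit of the 39 libraries without rFibcd1, 27 of the 33 members were higher and 3 lower in diaphragm than in TA, where 62.9% of all genes tested were called higher and 8.24% lower (71.1% in either direction). Between TA and soleus 0 members were higher and 28 lower in TA (5.50% and 61.9% of all genes, 67.4% in either direction). Diaphragm and soleus differed in both directions, with 9 members higher and 9 lower in diaphragm (16.6% and 21.4% of all genes). After median-ratio scaling, which rescales each library by the median ratio of its genes, the background was near even, with 4960 genes higher and 4697 lower in diaphragm than in TA and 3634 higher and 3548 lower in TA than in soleus, against 8783 and 1151, and 768 and 8646, without it. Of the members called without that scaling, 5 higher in diaphragm than in TA (Col4a4, Col4a6, Col6a5, Col6a6 and Col28a1) had a mean of 1 TPM, the minimum for testing, in diaphragm groups alone, and Col28a1 was not called with no filter (adjusted p = 0.0567). The other 4 were also among those higher in diaphragm than in soleus. Likewise Col11a1 and Col13a1, lower in diaphragm and in TA than in soleus, reached it in soleus alone. After the scaling the members counted 24 higher and 3 lower in diaphragm than in TA, and 1 higher and 19 lower in TA than in soleus.

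Some chains were highest in the diaphragm. Col14a1, a FACIT chain that coats fibrils, ranged from 24.6 to 43.6 TPM in the non-cachectic mock diaphragm (median 28.9, n = 9), from 1.03 to 2.18 TPM in TA and from 3.63 to 7.18 TPM in soleus (n = 5 each). No diaphragm library overlapped a limb library, as for 54.6% of all genes wholly higher in diaphragm than in TA and 11.6% than in soleus. Its level was 3.57 ± 0.25 (SE) higher in diaphragm than in TA on the log2(TPM + 1) scale (adjusted p = 2.11e-14), an 11.9-fold difference on that scale, and 2.37 ± 0.25 higher than in soleus (adjusted p = 1.87e-09).

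Col6a6 and Col6a5, alternative type VI chains that can take the place of Col6a3, followed. Col6a6 lay between 8.41 and 16.8 TPM in the non-cachectic mock diaphragm (median 10.4) and never above 0.849 TPM in the non-cachectic TA or soleus. Col6a5 lay between 2.92 and 8.05 TPM (median 3.74) against a highest limb value of 0.0823 TPM. Col4a6, a type IV chain of some basement membranes such as those of smooth muscle, lay between 1.14 and 3.43 TPM (median 1.83) and never above 0.217 TPM. The non-cachectic libraries of diaphragm and limb muscle did not overlap for these 3 chains, and the differences from TA were 2.90, 2.39 and 1.44 on the log2 scale. A diaphragm level wholly above TA was found for 54.6% of all genes tested, and wholly above soleus for 11.6%. All 3 reached the mean of 1 TPM needed for testing in diaphragm groups alone, so their selection favoured a higher level there, and with no filter on genes they were called as well (adjusted p = 5.05e-16, 2.94e-11 and 4.95e-08). The diaphragm is covered by mesothelium, and a set of 5 mesothelium markers summed to group means of 132 to 157 TPM in the diaphragm and of at most 1.55 TPM in the limb muscles. Their part in the difference was not tested.

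Other chains were higher in limb muscle, 3 of them in TA and 9 in soleus against diaphragm. Col7a1, the anchoring fibril chain, was at 3.25, 3.26, 3.44, 3.72 and 3.899 TPM in the non-cachectic TA and at 2.51, 2.54, 2.59, 2.67 and 3.11 TPM in soleus, all above the highest non-cachectic mock diaphragm library at 1.68 TPM. Col22a1, a FACIT chain of the muscle-tendon junction, was at 11.98, 12.03, 14.3, 15.4 and 17.5 TPM in soleus, at 2.82 to 5.91 TPM in TA and at 0.848 to 2.36 TPM in the diaphragm. The 3 muscles did not overlap for Col22a1, and its difference between diaphragm and soleus was -2.50 ± 0.21 (SE) on the log2 scale (adjusted p = 3.99e-12). Of all genes tested, 6.05% lay wholly lower in diaphragm than in TA and 16.7% than in soleus. Between TA and soleus, 64.3% lay wholly lower in TA. The type XI chains, minor fibrillar chains that sit inside fibrils and set their diameter, were also highest in soleus, with a difference between diaphragm and soleus of -2.13 ± 0.18 for Col11a1 (adjusted p = 5.60e-12) and of -1.38 ± 0.18 for Col11a2 (adjusted p = 1.94e-07).

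The non-cachectic soleus libraries also held the highest sum of 8 tendon markers, 699 ± 94.5 TPM (SD, n = 5), against 80.6 TPM on average in TA and 137 to 156 TPM in the diaphragm groups. Tnmd, a membrane protein of tendon cells, was at 51.7 to 72.5 TPM in those soleus libraries and at most 8.72 TPM in the non-cachectic TA. The part of tendon cells in the soleus values was not tested.

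The melanoma comparison asks how collagen expression in each muscle differed between mice with a wasting and a non-wasting tumour. The largest differences were in soleus, where 11 of the 33 members fell and 1 rose in limma (7.02% of all genes were called lower and 15.3% higher). The median log2 fold change was -0.36 over the members and 0.07 over all genes tested. The plot of log2 fold changes shows the 3 muscles together.

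**Figure D2:**
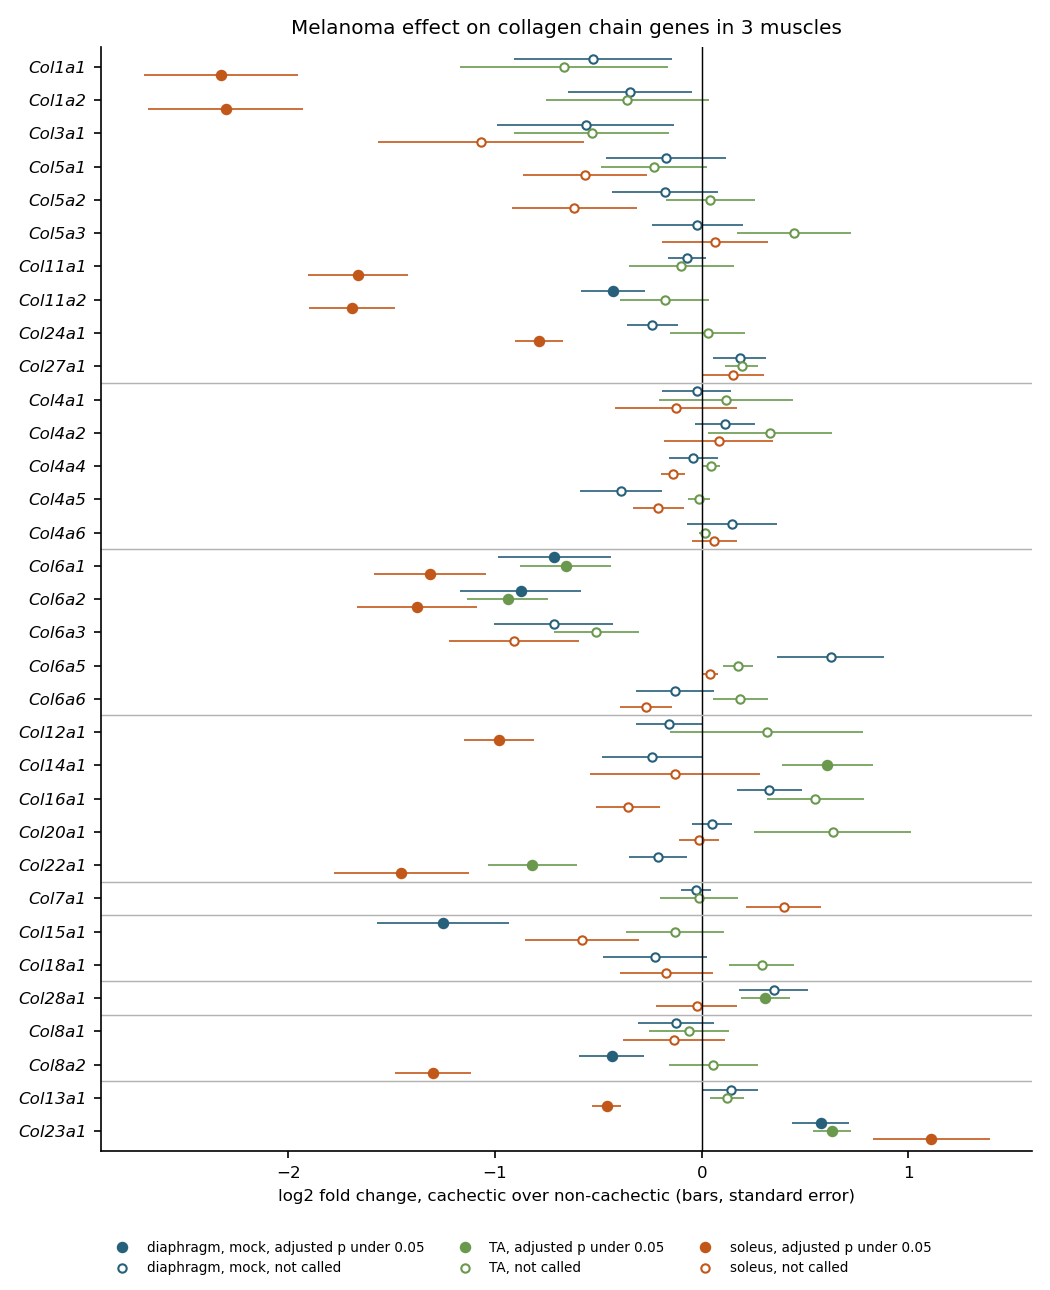
Log2 fold change of the 33 tested collagen chains between cachectic and non-cachectic melanoma (x axis, log2(TPM + 1) scale, bars are standard errors) in mock diaphragm, TA and soleus, ordered by structural class, with filled points for an adjusted p under 0.05. In soleus Col1a1 and Col1a2 lie lowest at -2.33 and -2.30, and Col23a1 lies above 0 in all 3 muscles.

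Type I collagen changed most in soleus. Col1a1 was at 89.9, 91.5, 109, 132 and 164 TPM in the non-cachectic soleus and at 14.1, 15.0, 17.1, 22.2 and 62.1 TPM in the cachectic soleus. Col1a2 was at 75.0, 78.1, 92.6, 109 and 131 TPM and at 10.6, 11.3, 14.9, 24.1 and 48.2 TPM in the same order. The groups did not overlap for either chain, although the library numbered 9 in its column name lay well above the other cachectic ones for both. Col1a1 fell by 2.33 ± 0.37 (SE) on the log2 scale (adjusted p = 0.00309, 5.02-fold) and Col1a2 fell by 2.30 ± 0.37 (adjusted p = 0.00326, 4.93-fold). In whole-muscle RNA, fewer cells of a type and less RNA per cell cannot be told apart.

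The minor fibrillar chains of the type XI group fell with them. Col11a2 was at 8.53, 11.1, 11.3, 12.97 and 13.3 TPM in the non-cachectic soleus and at 1.62, 2.34, 2.44, 3.73 and 4.71 TPM in the cachectic soleus. Col11a1 was at 4.08 to 7.07 TPM and at 0.297 to 1.88 TPM. Again no cachectic library reached a non-cachectic one. Col11a2 fell by 1.69 ± 0.21 (adjusted p = 0.000954) and Col11a1 by 1.66 ± 0.24 (adjusted p = 0.00199). Col24a1, another minor fibrillar chain, fell by 0.79 on the log2 scale, again without overlap.

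Col3a1 did not follow the type I chains to the same extent. It was at 33.6, 46.5, 54.7, 64.0 and 90.4 TPM in the non-cachectic soleus and at 11.4, 18.05, 21.01, 25.7 and 95.9 TPM in the cachectic soleus, where library 9 held the highest value of all 10. The remaining cachectic libraries all lay below the non-cachectic ones. The log2 difference was -1.07 ± 0.50 (SE, adjusted p = 0.151) with every library and -1.53 (adjusted p = 0.00907) without library 9. The type V chains Col5a1 and Col5a2, which nucleate fibrils of type I collagen, had log2 differences of -0.56 ± 0.30 (adjusted p = 0.205) and -0.62 ± 0.30 (adjusted p = 0.172) with every library, and both were called without library 9, at -0.84 and -0.87. In all, leaving out library 9 gave 18 called members (17 lower) in place of 12.

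Among the FACIT chains of the soleus, Col22a1 was at 1.23, 4.60, 5.50, 5.79 and 8.22 TPM with the cachectic melanoma, below all 5 non-cachectic libraries, and fell by 1.45 ± 0.33 (adjusted p = 0.0124). Col12a1, a stress-responsive chain on the surface of fibrils, was at 3.94 to 5.57 TPM and at 0.912 to 2.53 TPM, and fell by 0.98 ± 0.17 (adjusted p = 0.00394). Col14a1 (log2 difference -0.13, adjusted p = 0.858) and Col20a1 (-0.01, adjusted p = 0.949) were not called. Col16a1 gave -0.36 ± 0.16 (adjusted p = 0.128) and was called lower without library 9 (-0.47, adjusted p = 0.0314). Differences between the FACIT chains were not tested.

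Of 5 tested type VI chains, Col6a1 and Col6a2 fell in soleus, and 0 of 5 tested type IV chains passed the test. Col6a1 was at 38.8, 41.8, 49.1, 50.7 and 64.2 TPM in the non-cachectic and at 12.6, 14.3, 16.3, 20.1 and 39.01 TPM in the cachectic soleus, and Col6a2 was at 17.9, 20.6, 23.1, 23.2 and 29.9 TPM and at 5.57, 6.17, 6.20, 8.01 and 19.2 TPM. For both chains the groups overlapped only through library 9. Col6a1 fell by 1.31 ± 0.27 (adjusted p = 0.00883) and Col6a2 by 1.38 ± 0.29 (adjusted p = 0.00955), while Col6a3, the longest chain of the trimer, had a log2 difference of -0.91 ± 0.31 (adjusted p = 0.0637) and passed after median-ratio scaling (adjusted p = 0.0371). The Dunn test on ranks ended the calls of Col6a1 and Col6a2 (adjusted p = 0.0692 for both). In soleus that test called 1839 genes higher and 729 lower, as many as were free of overlap in each direction. A gene whose groups overlapped, even through 1 library, could therefore not pass it there. Col4a1 was at 38.9 to 82.7 TPM and at 31.5 to 92.0 TPM, fully overlapping (log2 difference -0.12 ± 0.30, adjusted p = 0.8002), and Col4a2 gave 0.08 ± 0.26 (adjusted p = 0.859). The share of type IV chains in collagen TPM was 18.4% in the non-cachectic and 35.1% in the cachectic soleus on average, and Col4a1 was the leading chain of the cachectic soleus with 17.1% ± 5.3 (SD, n = 5).

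Col8a2, a short-chain network collagen, fell by 1.30 ± 0.18 (adjusted p = 0.00177) and Col13a1, a transmembrane chain of the neuromuscular junction, by 0.46 ± 0.07 (adjusted p = 0.00252) in soleus, both without overlap. Col13a1 reached the mean of 1 TPM needed for testing in 1 group alone, the non-cachectic soleus, so its selection favoured a fall there, and the counts of members lower in soleus include it. With no filter on genes it was called as well (adjusted p = 0.00786). Col23a1, another transmembrane chain, was the 1 member that rose there. It was at 4.01, 4.30, 5.88, 6.23 and 7.34 TPM in the non-cachectic and at 5.99, 11.99, 13.3, 18.5 and 19.4 TPM in the cachectic soleus, so that only the lowest cachectic library lay within the non-cachectic range. The rise was 1.11 ± 0.28 (adjusted p = 0.0208) and was not called without the non-cachectic libraries numbered 61 or 62 (highest adjusted p = 0.0545), nor by the Dunn test (adjusted p = 0.0963), which called 9 members in soleus, all lower.

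Of the 33 members, 9 had every cachectic soleus library below every non-cachectic one, against 5.22% of all genes tested. They were Col1a1, Col1a2, Col11a1, Col11a2, Col24a1, Col12a1, Col22a1, Col8a2 and Col13a1. These are also the 9 members that the Dunn test called in soleus, so that test adds nothing to the lack of overlap.

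Tendon markers moved with these genes. Of the 8 markers, 6 were called lower and 0 higher in the cachectic soleus, namely Tnmd, Kera, Chad, Fmod, Comp and Mkx, while the log2 difference was 0.28 for Scx (adjusted p = 0.193) and -0.84 for Thbs4 (adjusted p = 0.141). Their sum was 546 to 786 TPM in the non-cachectic and 114 to 414 TPM in the cachectic soleus, without overlap. The cachectic libraries ranked alike by this sum and by Col1a1, except that libraries 6 and 8 changed places. Library 9 had 414 TPM of tendon markers and 62.1 TPM of Col1a1, library 10 had 409 TPM and 22.2 TPM, and library 7 had 180 TPM and 17.1 TPM. Library 8 had 114 TPM and 15.0 TPM, and library 6 had 159 TPM and 14.1 TPM. Markers of fibro-adipogenic progenitors summed to 267 TPM and 343 TPM on average, with 1 of 8 called higher and 0 lower. The 5 myofibre markers summed to 52405 to 60262 TPM in the non-cachectic and 65121 to 76773 TPM in the cachectic soleus, without overlap, with 1 called higher and 0 lower. Mean sums went from 103 to 204 TPM for Schwann cell markers (0 of 5 called), from 49.1 to 92.1 TPM for macrophage markers (1 of 6 higher) and from 126 to 216 TPM for adipocyte markers (1 of 5 lower). Over all genes, 15.3% were called higher and 7.02% lower in soleus. The part of these measures in the soleus result was not tested.

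The share of mitochondrial transcripts was 38.96% to 44.04% of TPM in the non-cachectic and 24.1% to 34.6% in the cachectic soleus, and its part in the result was not tested. After median-ratio scaling 14 members were lower and 1 higher in soleus, with 1823 genes higher and 1727 lower in all, against 2141 and 981 without it.

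In TA, 3 members fell and 3 rose in limma (3.67% of all genes were called lower and 49.3% higher, 53.0% either way), and the median log2 fold change was 0.04 over the members and 0.36 over all genes. Col6a2 was at 7.05, 7.92, 9.92, 10.8 and 12.9 TPM in the non-cachectic and at 3.12, 4.17, 4.18, 4.73 and 6.85 TPM in the cachectic TA, without overlap. It fell by 0.94 ± 0.20 (SE, adjusted p = 0.00697, 1.92-fold). Col6a1 was at 12.9, 14.9, 18.8, 19.8 and 23.6 TPM and at 6.92, 10.2, 10.8, 11.3 and 16.9 TPM, where 1 cachectic library lay within the non-cachectic range, and it fell by 0.66 ± 0.22 (adjusted p = 0.0320). Col6a3 gave -0.51 ± 0.21 (adjusted p = 0.0596), and passed after median-ratio scaling (-0.92).

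Col22a1 of the muscle-tendon junction fell in TA as well. It was at 2.82, 3.19, 4.17, 4.33 and 5.91 TPM in the non-cachectic and at 1.02, 1.57, 1.73, 1.97 and 3.24 TPM in the cachectic TA, and fell by 0.82 ± 0.21 (adjusted p = 0.0143), with 1 cachectic library above the 2 lowest non-cachectic ones.

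Col23a1 rose in TA from 0.629, 0.642, 0.664, 0.807 and 0.848 TPM to 1.34, 1.46, 1.49, 1.91 and 2.15 TPM, without overlap, by 0.63 ± 0.09 (adjusted p = 0.00163). Of all genes tested, 43.1% likewise had every cachectic TA library above every non-cachectic one and 2.39% had every one below. Col14a1 rose by 0.61 ± 0.22 (adjusted p = 0.0403) and Col28a1, a chain found around Schwann cells of peripheral nerve, by 0.31 ± 0.12 (adjusted p = 0.0485). Neither of the latter passed by the Dunn test (adjusted p = 0.0722 and 0.156) or after median-ratio scaling (0.28, adjusted p = 0.372, and 0.20, adjusted p = 0.0789), while Col23a1 did (0.38, adjusted p = 0.0314). Col28a1 reached the mean of 1 TPM needed for testing in the cachectic mock diaphragm alone. With no filter on genes it was not called in TA (adjusted p = 0.0857).

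The type I and III chains were not called in TA. Col1a1 was at 12.95, 13.9, 19.9, 36.2 and 40.2 TPM in the non-cachectic and at 7.83, 9.00, 9.50, 13.7 and 47.7 TPM in the cachectic TA (log2 difference -0.67 ± 0.50, adjusted p = 0.267). The library numbered 9 in TA held the highest value of all 10, as in the cachectic soleus for Col3a1. Without it Col1a1 was called at -1.10 (adjusted p = 0.0357) and Col3a1 at -0.88 (adjusted p = 0.0193), while the count of calls went from 6 to 7. Without the non-cachectic TA library numbered 65 the count was 3, with Col6a2, Col22a1 and Col23a1 called. The calls of Col6a1, Col14a1 and Col28a1 each depended on several single libraries (5, 6 and 8 of 10, respectively, ended the call when left out).

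Beside these genes in TA, all 6 macrophage markers and 5 of 8 markers of fibro-adipogenic progenitors were called higher, 3 of 8 tendon markers lower and 1 higher. The sums moved from 138 to 275 TPM for the progenitor markers, from 15.0 to 59.8 TPM for macrophages, and from 80.6 to 71.3 TPM for tendon. Schwann cell markers went from 36.2 to 60.6 TPM on average, with 2 of 5 called higher, and endothelial markers from 112 to 173 TPM, with 3 of 6 called higher. The 5 myofibre markers summed to 46370 to 53099 TPM in the non-cachectic and 22119 to 43891 TPM in the cachectic TA, without overlap, with 2 called higher and 2 lower. The share of mitochondrial transcripts was 47.3% to 51.7% of TPM in the non-cachectic and 25.1% to 45.6% in the cachectic TA. The marker counts are to be read against 49.3% of all genes called higher and 3.67% called lower in TA. The part of these measures in the TA values was not tested.

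In the mock diaphragm 5 members fell and 1 rose in limma (2.63% of all genes were called lower and 29.8% higher, 32.4% either way). The median log2 fold change was -0.16 over the members and 0.19 over all genes. Col15a1, a multiplexin of the outer basement membrane around vessels and myofibres, changed most. It was at 26.4 to 43.0 TPM (median 35.4) in the non-cachectic and at 4.89 to 32.2 TPM (median 17.9) in the cachectic mock diaphragm, with the groups overlapping between 26.4 and 32.2 TPM. It fell by 1.25 ± 0.32 (SE, adjusted p = 0.00323, 2.38-fold). Col18a1, the other multiplexin and the source of endostatin, gave -0.23 ± 0.25 (adjusted p = 0.489).

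The type VI chains Col6a2 and Col6a1 fell in the diaphragm too. Col6a2 was at 23.1 to 43.4 TPM (median 35.5) and at 7.09 to 28.9 TPM (median 17.4), and Col6a1 at 46.2 to 88.2 TPM (median 68.1) and at 18.2 to 63.8 TPM (median 40.8). The medians lay outside the range of the other group for both chains, although the ranges overlapped. Col6a2 fell by 0.88 ± 0.29 (adjusted p = 0.0217, 1.83-fold), Col6a1 by 0.71 ± 0.27 (adjusted p = 0.0413, 1.64-fold), and Col6a3 gave -0.72 ± 0.29 (adjusted p = 0.0538). Col6a3 passed with median-ratio scaling (-0.93, adjusted p = 0.0125), with the Pcna-ps2 state as a term (-0.95, adjusted p = 0.0332) and with only the 2 groups in the fit (adjusted p = 0.0136). The alternative chain Col6a5 gave 0.62 ± 0.26 (adjusted p = 0.0601), in the opposite direction.

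Col8a2 fell by 0.44 ± 0.16 (adjusted p = 0.0326) and Col11a2 by 0.43 ± 0.15 (adjusted p = 0.0302). Col23a1 was at 3.54 to 7.03 TPM (median 4.98) in the non-cachectic and at 5.83 to 11.8 TPM (median 8.35) in the cachectic mock diaphragm, and rose by 0.58 ± 0.14 (adjusted p = 0.00195, 1.49-fold). Col1a1 (-0.52 ± 0.38, adjusted p = 0.287), Col1a2 (-0.35 ± 0.30, adjusted p = 0.371) and Col3a1 (-0.56 ± 0.43, adjusted p = 0.305) did not pass. The 6 calls included no member whose groups were free of overlap, where 0.286% of all genes lay wholly below and 3.93% wholly above.

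The split of Pcna-ps2 states crossed this comparison. With the state as a term in the fit, Col15a1 (-1.57, adjusted p = 0.00217), Col6a2 (-1.12, adjusted p = 0.0150), Col6a1 (-0.96, adjusted p = 0.0218) and Col23a1 (0.47, adjusted p = 0.0284) were still called, and Col11a2 was not (-0.43, adjusted p = 0.0819), nor was it by the Dunn test (adjusted p = 0.0858). Among the high-state libraries alone (9 cachectic, 3 non-cachectic) the differences were -1.30 for Col15a1, -0.85 for Col6a2, -0.69 for Col6a1 and 0.48 for Col23a1, and none of the 4 passed (adjusted p = 0.0693, 0.133, 0.152 and 0.121). Nor did Col8a2 pass there (-0.63, adjusted p = 0.0714). The 1 member called in that subset was Col11a2, again lower. With no filter on genes, Col6a2, Col6a1, Col8a2 and Col11a2 lost their calls (adjusted p = 0.0693, 0.129, 0.0999 and 0.0932). Without the non-cachectic library numbered 61, 3 members were called, Col15a1, Col6a2 and Col23a1. Col6a2 lost its call without the cachectic library numbered 20 (adjusted p = 0.0502), Col6a1 without any of 10 libraries (highest adjusted p = 0.0896), Col8a2 without any of 8 (0.0732) and Col11a2 without any of 4 (0.0629).

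Endothelial markers (4 of 6), mural cell markers (4 of 6) and macrophage markers (3 of 6) were called higher in the cachectic mock diaphragm, with 1 mural marker lower. Of 8 progenitor markers 2 were higher and 0 lower, with sums of 457 and 567 TPM on average, and of 8 tendon markers 2 were lower. All 5 mesothelium markers were not called. The 5 myofibre markers summed to 43237 and 49118 TPM on average, with 3 higher and 1 lower. The mitochondrial share was 41.9% to 51.9% of TPM in the non-cachectic and 32.9% to 41.6% in the cachectic mock diaphragm. Beside these marker counts, 29.8% of all genes were called higher and 2.63% lower. The part of these measures in the diaphragm values was not tested. After median-ratio scaling 8 members were lower and 1 higher in the diaphragm, with 1012 genes higher and 1179 lower in all, against 4158 and 368 without it; in TA the same scaling gave 6 lower and 1 higher members, with 2433 genes higher and 2536 lower, against 6890 and 513.

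With rFibcd1 in both groups, the comparison of the melanomas in the diaphragm called 2 members lower and 0 higher (1.90% and 6.82% of all genes). After median-ratio scaling 8 members were lower and 0 higher, beside 570 genes higher and 673 lower (953 and 266 without it). Col15a1 was at 40.8 to 53.5 TPM (median 46.9) in the non-cachectic and at 5.53 to 52.0 TPM (median 29.1) in the cachectic rFibcd1 diaphragm, and fell by 1.02 ± 0.31 (adjusted p = 0.0332). Col11a2 fell by 0.52 ± 0.15 (adjusted p = 0.0235). The cachectic rFibcd1 group was by far the most spread of the 8, with collagen sums from 217 to 1647 TPM, and neither call was met among the high-state libraries alone. The count of calls ranged from 1 to 6 when each library was left out in turn. Macrophage markers summed to 188 and 353 TPM on average in these groups (0 of 6 called) and progenitor markers to 499 and 664 TPM (2 of 8 higher), and the mitochondrial share was 43.9% ± 2.95 (SD, n = 10) and 37.6% ± 5.62 (SD, n = 10). The part of these measures was not tested.

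**Figure D3:**
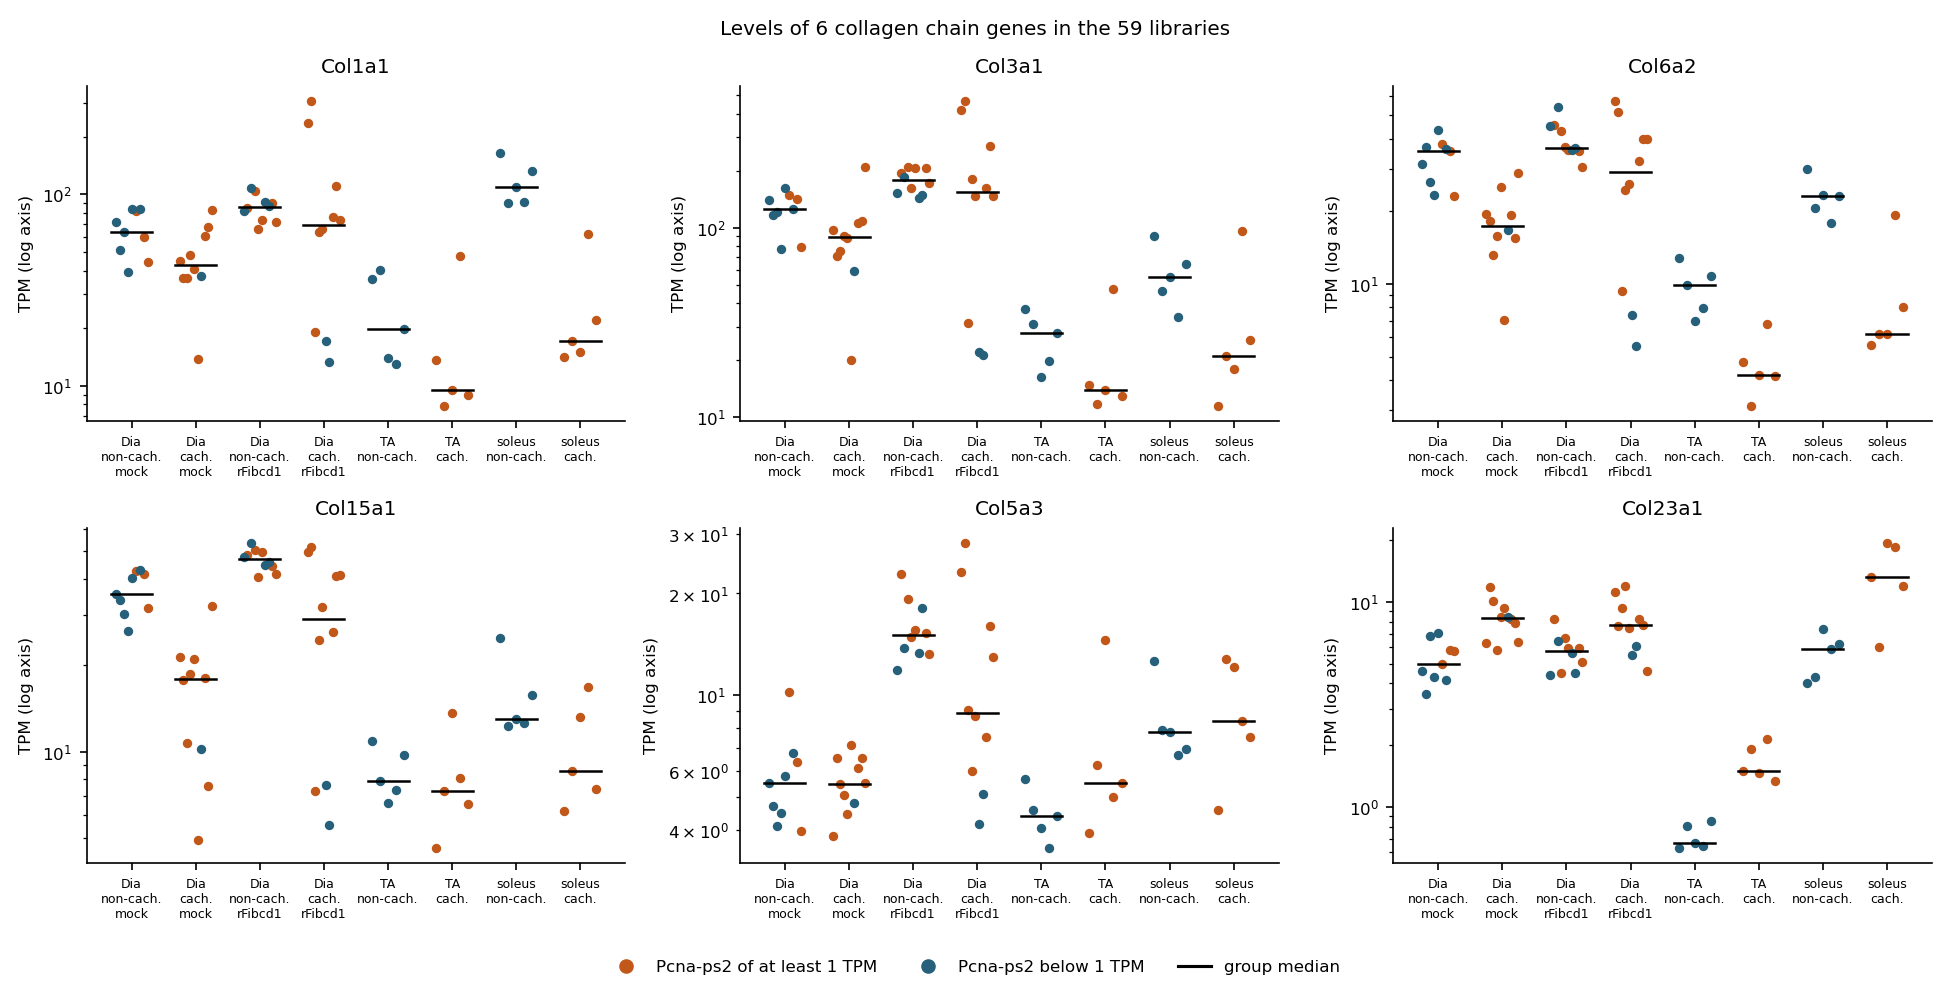
TPM (y axis, log scale) of 6 collagen chains in each library of the 8 groups (x axis), coloured by the level of Pcna-ps2, with a line at the group median. Col1a1 in soleus runs from 89.9 to 164 TPM in the non-cachectic and from 14.1 to 62.1 TPM in the cachectic group, and Col5a3 in the non-cachectic diaphragm from 3.99 to 10.2 TPM with mock and from 11.9 to 22.9 TPM with rFibcd1.

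The effect of the melanoma was then compared between muscles in a single fit of the 39 libraries of the 6 groups without rFibcd1. Since these contrasts share the same libraries, each is given with its own values. The effect in diaphragm minus that in soleus was called positive for 7 members and negative for 0 (1.90% and 0.623% of all genes), and the effect in TA minus that in soleus for 9 and 0 (18.2% and 1.28% of all genes, 19.5% either way). Diaphragm and TA differed for 0 members (0.673% of all genes were called higher and 4.10% lower in limma, 4.77% either way), and the member with the smallest p was Col15a1 (-1.12 ± 0.39, adjusted p = 0.0791). With the number in the column name as a replicate block, an alternative added after the data were seen, Col15a1 (-0.98, adjusted p = 0.0417) and Col4a5 (-0.42, adjusted p = 0.0346) were called, that is, lower in diaphragm relative to TA, beside 2202 genes in all (667 without the block). The block also called Col24a1 for diaphragm minus soleus (0.56, adjusted p = 0.0115) and Col20a1 for TA minus soleus (0.65, adjusted p = 0.0416), the latter beside 5528 genes in all (2724 without it).

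The 7 members with a lower effect in soleus than in diaphragm were type I and type XI chains together with Col22a1, Col8a2 and Col13a1. Col13a1 reached the mean of 1 TPM needed for testing in the non-cachectic soleus alone. Its selection thus favoured a lower effect in soleus, against diaphragm and against TA. For Col1a2 the effects differed by 1.95 ± 0.41 (SE, adjusted p = 0.00561), for Col1a1 by 1.802 ± 0.50 (adjusted p = 0.0443), for Col11a1 by 1.59 ± 0.25 (adjusted p = 0.000180), for Col11a2 by 1.26, for Col22a1 by 1.24, for Col8a2 by 0.86 and for Col13a1 by 0.60. Against TA they differed by 1.94 ± 0.47 for Col1a2 (adjusted p = 0.00532), 1.66 ± 0.58 for Col1a1 (adjusted p = 0.0403), 1.56 for Col11a1, 1.51 for Col11a2 and 1.35 for Col8a2. The Col1a1 difference was lost without any of 24 libraries of 39 against diaphragm and without any of 10 against TA (highest adjusted p = 0.0955 and 0.0904), and after median-ratio scaling in both (adjusted p = 0.0583 and 0.160). That scaling left 5 members positive and 0 negative against diaphragm, and 5 positive and 1 negative (Col7a1, -0.74) against TA. Against diaphragm Col8a2 was also lost (adjusted p = 0.0836). With a pseudocount of 0.1 in place of 1, only Col1a2, Col11a1 and Col11a2 of the 7 were called against diaphragm, and Col1a1 (adjusted p = 0.0531) and Col22a1 (adjusted p = 0.0726) were among those lost. Over all genes median-ratio scaling gave 183 positive and 327 negative against diaphragm (265 and 87 without it) and 539 and 957 against TA (2545 and 179 without it). For Col6a1, Col6a2 and Col23a1, called in the same direction in each muscle, the difference between muscles did not pass (adjusted p = 0.348, 0.480 and 0.277 between diaphragm and soleus).

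The rFibcd1 comparison asks what the injected protein changed in the diaphragm. With the non-cachectic melanoma 2 members rose and 0 fell (0.343% and 0.0644% of all genes, 57 genes in total). Col5a3, a type V chain that differs from Col5a1 and Col5a2 in its narrower expression, was at 3.99 to 10.2 TPM (median 5.51) with mock and at 11.9 to 22.9 TPM (median 15.1) with rFibcd1. All 10 rFibcd1 libraries lay above all 9 mock libraries, as in 0.379% of all genes, although 1 mock library, numbered 66, lay far above the others of its group at 10.2 TPM. Col5a3 rose by 1.34 ± 0.22 (SE, adjusted p = 0.00142, 2.52-fold).

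Col4a2 was at 31.1 to 62.8 TPM (median 45.0) with mock and at 62.1 to 85.4 TPM (median 71.9) with rFibcd1, touching at the edge, and rose by 0.64 ± 0.15 (adjusted p = 0.0308, 1.56-fold). Its neighbour Col4a1 was at 48.5 to 93.1 TPM and at 91.6 to 123 TPM and gave 0.62 ± 0.17 (adjusted p = 0.0975). The type V partners gave 0.57 ± 0.29 for Col5a1 (adjusted p = 0.298) and 0.42 ± 0.25 for Col5a2 (adjusted p = 0.347), and the collagen sums were 655 ± 118 (SD, n = 9) and 874 ± 77.7 TPM (SD, n = 10).

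The mock group held 3 high-state libraries and the rFibcd1 group 6. With the state as a term Col5a3 was called (1.21, adjusted p = 0.00231) and Col4a2 was not (0.59, adjusted p = 0.0776). By the Dunn test neither passed (adjusted p = 0.0751 for Col5a3 and 0.0730 for Col4a2). Among high-state libraries Col5a3 gave 1.24 (adjusted p = 0.334), and with an index of clock genes as a term 0.66 (adjusted p = 1), and neither passed. Col4a2 gave 0.26 with the clock-gene index (adjusted p = 1) and 0.47 after median-ratio scaling (adjusted p = 0.0790), and was not called with no filter on genes (adjusted p = 0.0942). Col4a2 lost its call without any of 9 libraries (highest adjusted p = 0.0965), and Col5a3 kept its call without each of the 39 libraries in turn. Beside these 2 members, adipocyte markers summed to 22.8 to 295 TPM (median 61.6) with mock and 31.1 to 965 TPM (median 140) with rFibcd1, and macrophage markers to 73.4 to 169 TPM (median 132) and 88.5 to 370.0 TPM (median 145), with 0 of 5 and 0 of 6 called. The mitochondrial share was 47.5% ± 2.97 (SD, n = 9) with mock and 43.9% ± 2.95 (SD, n = 10) with rFibcd1. The part of these measures in the rFibcd1 values was not tested.

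With the cachectic melanoma 0 members were called between rFibcd1 and mock in limma (0.0429% of all genes were higher, 0.00716% lower and 0.0501% either way, 7 genes in all, while 1465 genes had an unadjusted p under 0.05, and the Dunn test also called 0 members). Col5a3 was at 3.84 to 7.15 TPM (median 5.48) with mock and at 4.16 to 28.2 TPM (median 8.89) with rFibcd1, which overlapped widely, and gave 0.79 ± 0.21 (adjusted p = 0.205). Among the high-state libraries (9 mock, 8 rFibcd1) Col5a3 gave 1.02 (adjusted p = 0.0216) and 4 members were called, beside 804 genes in all (685 higher). The test of the difference between the melanomas in the effect of rFibcd1 called 0 members (0.00716% of all genes were called positive and 0.0215% either way, 3 genes in all, with 1204 at an unadjusted p under 0.05), and gave -0.54 ± 0.31 for Col5a3 (adjusted p = 0.634).

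The wide spread of the cachectic rFibcd1 group was shared by the abundant chains. Col1a1 ranged from 13.3 to 306 TPM there (median 69.5) and Col3a1 from 21.3 to 465 TPM (median 155). The libraries numbered 1 and 2 were highest for both, at 234 and 306 TPM of Col1a1, and those numbered 3, 11 and 14 lowest, at 19.2, 17.1 and 13.3 TPM. Of the 3 lowest, library 3 was in the high state and the other 2 in the low state. Col1a1 and Col3a1 were not called between rFibcd1 and mock with either melanoma (adjusted p = 0.637 and 0.671 with the cachectic, 0.458 and 0.420 with the non-cachectic melanoma). The map of levels by library shows this spread against the other groups.

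**Figure D4:**
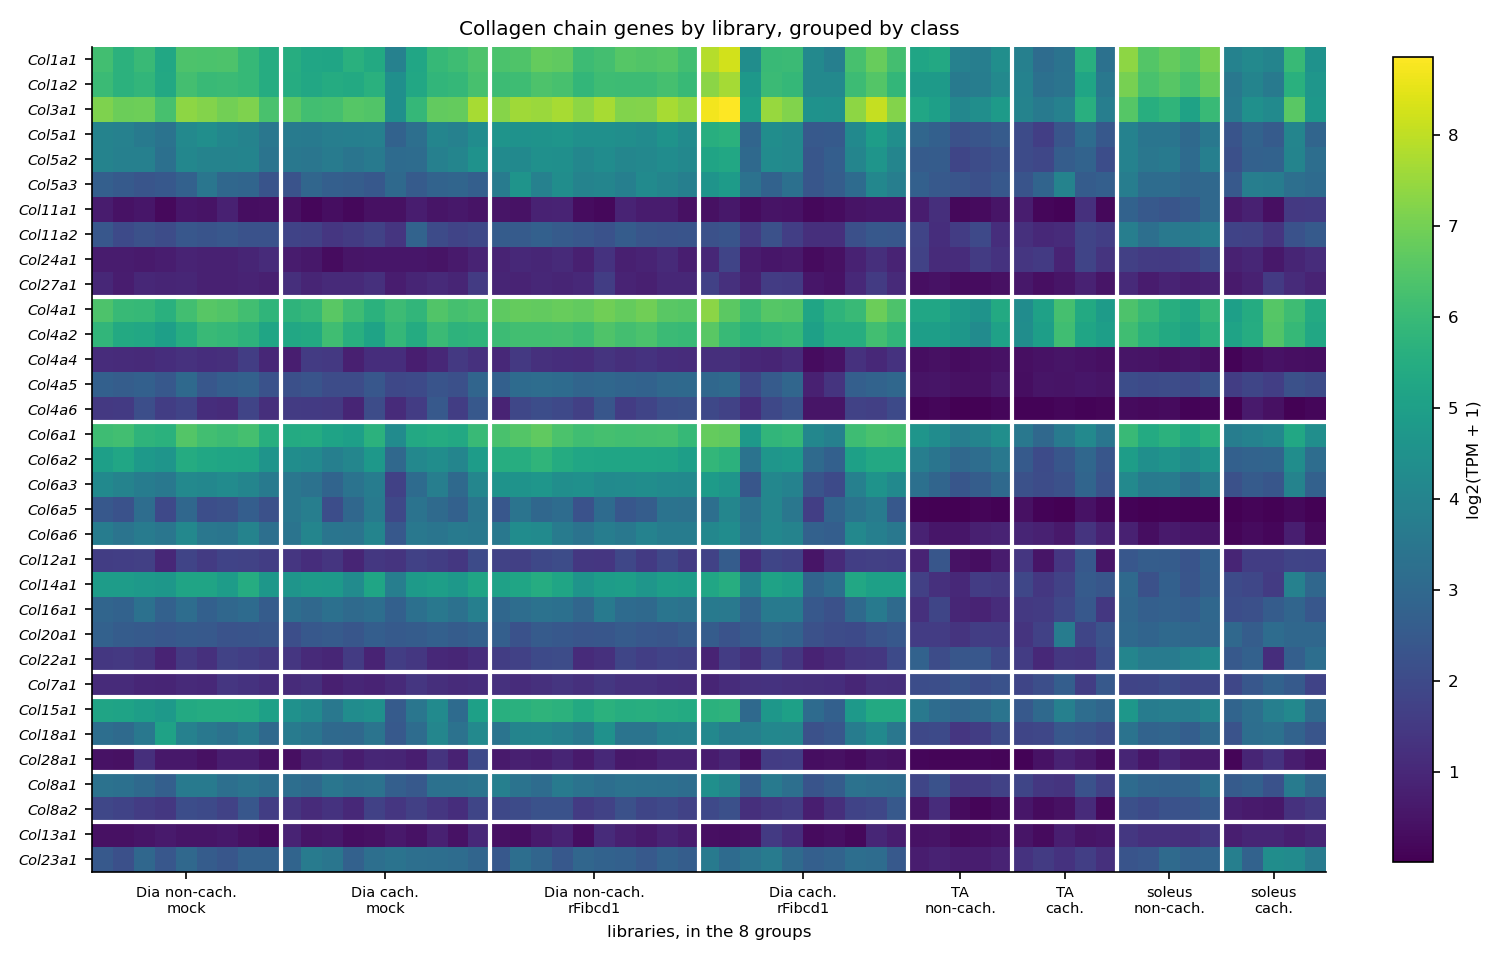
Level of the 33 tested collagen chains (rows, by structural class) in the 59 libraries (columns, by group), as log2(TPM + 1) in colour. In the non-cachectic groups without rFibcd1, 27 rows are called lower and 3 higher in TA than in diaphragm, and the columns of the cachectic rFibcd1 diaphragm differ among themselves from 217 to 1647 TPM in summed collagen.

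Ratios between chains within a library do not depend on how TPM is scaled. For 6 ratios in 3 muscles, tested by exact two-sided permutation with adjustment over the 18 tests, 6 passed. Col4a1 over Col4a2, the chains of the major type IV trimer from their shared locus, went from a geometric mean of 1.51 to 1.37 in the mock diaphragm (exact permutation p = 0.00143, adjusted 0.0257), from 1.21 to 1.04 in TA (p = 0.0159 by exact permutation, adjusted 0.0476) and from 1.19 to 1.02 in soleus (p = 0.00794 by exact permutation, adjusted 0.0286). In soleus the ratio was 1.13 to 1.24 in the non-cachectic and 0.908 to 1.13 in the cachectic libraries, so that no cachectic library reached a non-cachectic one. Neither chain was called on its own in any of the 3 muscles. In TA the ratio no longer passed without any of 8 of the 10 libraries (highest adjusted p = 0.0816 by exact permutation), all but those numbered 9 and 63.

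Col6a1 over Col6a2, which pair in the type VI trimer, went from 2.01 to 2.29 in the mock diaphragm (exact permutation p = 0.00314, adjusted 0.0283) and from 1.86 to 2.42 in TA (exact permutation p = 0.00794, adjusted 0.0286). In TA the libraries lay between 1.83 and 1.90 and between 2.22 and 2.69, without overlap, although the ratio did not pass without any of the same 8 libraries (highest adjusted p = 0.0571 by exact permutation). With a library fewer, the smallest p that permutation can give is larger, also for groups that do not overlap. In soleus it went from 2.13 to 2.34 and did not pass (exact permutation p = 0.103, adjusted 0.169). The chains thus fell unequally in diaphragm and TA, Col6a2 by more.

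Col3a1 over Col1a1, the balance of type III to type I collagen, went from 0.480 to 1.16 in soleus (exact permutation p = 0.00794, adjusted 0.0286). It was 0.368 to 0.551 in the non-cachectic and 0.809 to 1.54 in the cachectic soleus, without overlap. In TA it was 1.15 and 1.27 (adjusted exact permutation p = 0.743) and in the diaphragm 1.93 and 1.89 (adjusted exact permutation p = 0.846). The soleus thus had the lowest ratio of the 3 muscles with the non-cachectic melanoma, and a ratio close to that of TA with the cachectic melanoma. The smallest p that 5 against 5 libraries allow is 0.00794. In the diaphragm, among high-state libraries alone, the ratios of Col4a1 to Col4a2 and of Col6a1 to Col6a2 did not pass (adjusted p = 0.360 and 0.164 by exact permutation, 9 against 3 libraries). The log2 difference was -0.09 there against -0.14 in all libraries for Col4a1 to Col4a2, and 0.190 against 0.191 for Col6a1 to Col6a2. Reads from the overlapping ends of Col4a1 and Col4a2 could be assigned to either gene if counting ignored strand. The labels name a stranded kit, the study methods a kit not described there as stranded, and the counting setting is not given, so this ratio is uncertain in that respect.

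**Figure D5:**
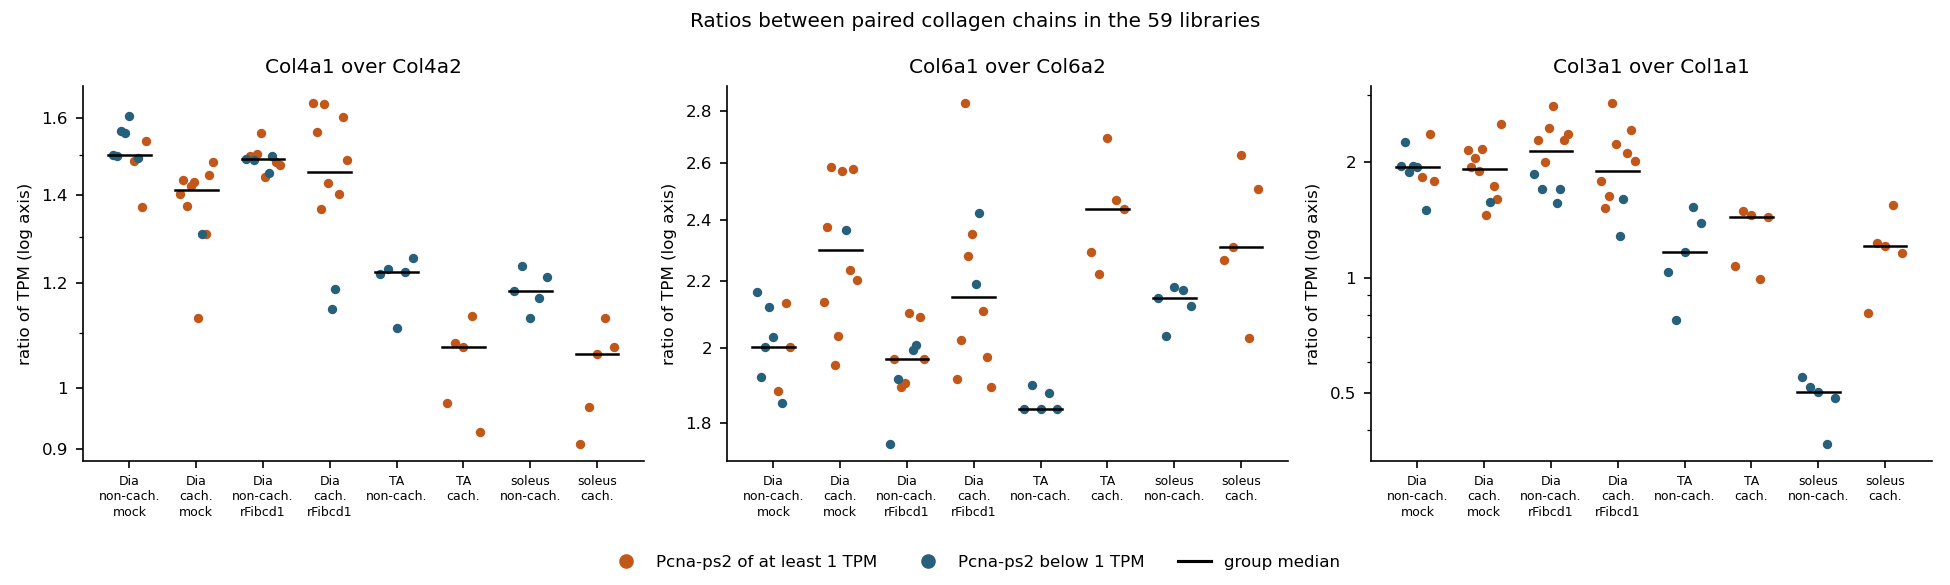
Ratio of TPM (y axis, log scale) between Col4a1 and Col4a2, Col6a1 and Col6a2, and Col3a1 and Col1a1 in each library of the 8 groups (x axis), coloured by the level of Pcna-ps2, with a line at the group median. The ratio of Col3a1 to Col1a1 in soleus is 0.368 to 0.551 in the non-cachectic and 0.809 to 1.54 in the cachectic group.

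The enzymes and chaperones that fold, modify and export collagen were taken as a further list. Of its 20 tested genes, 6 were higher and 1 lower in the cachectic mock diaphragm, 8 higher and 0 lower in TA, and 2 higher and 5 lower in soleus. P4hb, the disulfide isomerase subunit of prolyl 4-hydroxylase, rose by 0.57 ± 0.10 in the diaphragm (adjusted p = 9.34e-05) and by 1.24 ± 0.39 in TA (adjusted p = 0.0257), and rose by 0.51 in soleus as well. Colgalt1, which adds galactose to hydroxylysine, rose in the diaphragm and TA by 0.48 ± 0.11 and 0.91 ± 0.18 (adjusted p = 0.00108 and 0.00583). Its relative Colgalt2 fell by 0.54 ± 0.11 in the diaphragm (adjusted p = 0.000382). In soleus P3h4, a partner of lysyl hydroxylase, fell by 1.07 ± 0.12 (adjusted p = 0.000656) and P3h2, a prolyl 3-hydroxylase acting on type IV collagen, rose by 1.02 ± 0.22 (adjusted p = 0.00998). These counts are to be read against 29.8%, 49.3% and 15.3% of all genes called higher and 2.63%, 3.67% and 7.02% called lower in diaphragm, TA and soleus. With rFibcd1 and the non-cachectic melanoma 1 gene of the list was called, Creb3l1, a transcription factor that activates type I collagen genes, at 1.12 ± 0.27 (adjusted p = 0.0401).

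Of 6 tested genes that process procollagen outside the cell, 1 was higher in the diaphragm, 5 in TA and 0 in soleus, and 0 were lower in any, where 29.8%, 49.3% and 15.3% of all genes were called higher. Of 8 collagen receptors 1, 4 and 1 were higher and 0 lower. Ddr2, a receptor kinase for fibrillar collagen, rose by 0.43 in the diaphragm and by 0.89 in TA, and Itgb1, the shared beta chain of collagen-binding integrins, rose by 0.42 in TA and by 0.51 in soleus.

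Among 7 fibril-associated proteoglycans, 1 was higher in the diaphragm, 2 in TA and 0 in soleus, and 3 were lower in soleus, where 7.02% of all genes were called lower. Fmod, which binds type I fibrils in tendon and is also among the tendon markers, was at 224 to 323 TPM in the non-cachectic and 25.5 to 161 TPM in the cachectic soleus and fell by 2.09 ± 0.40 (adjusted p = 0.00649). Ogn fell by 1.05 and Prelp by 0.93 in soleus, whereas Prelp rose by 0.66 and Dcn, the main small proteoglycan of muscle, by 1.00 in TA. Of 8 genes of the transforming growth factor beta pathway and its targets, 1 was higher in the diaphragm (Ctgf, 0.50), 1 in TA (Tgfbi, 0.72) and 1 lower in soleus (Postn, a matricellular protein, which fell by 1.44 ± 0.37, adjusted p = 0.0223). For both lists, 29.8% of all genes were called higher in the diaphragm, 49.3% in TA and 15.3% in soleus.

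The 11 members below a mean of 1 TPM in every group were the cartilage chains Col2a1, Col9a1, Col9a2, Col9a3 and Col10a1, the type IV chain Col4a3, the type VI chain Col6a4, and Col17a1, Col19a1, Col25a1 and Col26a1. The nearest to the threshold were Col2a1 at 0.992 TPM in the non-cachectic soleus and Col17a1 at 0.890 TPM in the cachectic mock diaphragm, and the lowest that entered were Col28a1 at 1.04 TPM, Col27a1 at 1.31 TPM, Col4a4 at 1.34 TPM and Col13a1 at 1.49 TPM, each in its highest group.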

How the data were processed

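RNA-seq was done on diaphragm, tibialis anterior and soleus muscle, and 59 libraries in 8 groups were analysed. The deposited values were TPM, which the authors made from trimmed and filtered reads aligned to GRCm38 (mm10) with CLC Genomics Workbench 12.0.1. Library kit and sequencer differ between sources, a strand-specific TruSeq kit with HiSeq in the labels and a TruSeq RNA kit with NovaSeq in the study methods. Which applies to which libraries, the annotation and the use of strand in counting are not given in the sources used here, and sequencing depth is unknown, so that no counting error can be given. TPM is relative, so a change in abundant transcripts moves the values of all other genes.

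Genes with a mean of at least 1 TPM in at least 1 group were tested on log2(TPM + 1) with limma 3.58.1 in R 4.3.3 (moderated test with a mean-variance trend, Benjamini-Hochberg adjustment over all 13974 genes, adjusted p under 0.05). The pseudocount of 1 understates the change of low genes. The 4 diaphragm groups shared a fit, TA and soleus had their own, and muscles were compared in a fit of the 6 groups without rFibcd1. Log2 ratios of chain TPM were tested by exact two-sided permutation (Python 3.11.15, scipy 1.17.1, pandas 2.3.3). The limma script was tested on simulated data.

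Alternatives were another pseudocount and filters, median-ratio scaling, the Dunn test on ranks, only the 2 groups compared, the Pcna-ps2 state or a clock-gene index as a term, high-state libraries alone, and leaving out each library. High-state subsets of ratios, the column number as a block, and low-state diaphragm libraries alone were added after the data were seen. Any collagen chain could be named, with full values for the major chains and for up to 5 called members in each direction. In other lists up to 3 called genes were named, and further genes were chosen after their values were seen. The members and lists were chosen with earlier results of these data known. The labels do not say whether a number in the column names marks the same animal across muscles. Of 30 pairs of same-numbered libraries, 28 had correlated deviations above 0.1 (range -0.0077 to 0.508). In 25 of the 30 the same-numbered library correlated more strongly than any other-numbered library of its group. The reported fit between muscles nevertheless took the libraries as independent, and the column number entered only as the added block. Library numbers in the text are those of the column names, which were tied to groups but not to labelled replicates.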

Additional observations from a re-analysis of the deposited data

Results flagged for a closer look

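Of 264 combinations of a tested member and a group, 36 (23 genes) had a highest or lowest library far from the others of its group. The rule flags about 1 in 20 groups of normally distributed values, which TPM need not be. The members of a library are also not independent, so that rate sets no expectation here. The cachectic soleus library numbered 9 had 7 of these, with 62.1 TPM of Col1a1, 95.9 of Col3a1, 15.4 of Col5a1, 39.01 of Col6a1, 19.2 of Col6a2, 14.5 of Col6a3 and 0.677 of Col6a6, each the highest of its group. The cachectic TA library numbered 9 had 5, with 47.7 TPM of Col1a1, 36.1 of Col1a2, 47.5 of Col3a1, 6.52 of Col6a3 and 1.17 of Col8a2. The cachectic TA library numbered 8 was high for Col20a1 (12.2 TPM) and Col5a3 (14.6 TPM).

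In the non-cachectic TA, library 62 was high for Col12a1 (4.23 TPM) and Col16a1 (2.63 TPM), library 64 for Col6a5 (0.0823 TPM), and library 63 was low for Col20a1 (1.53 TPM). In the non-cachectic soleus, library 61 was high for Col15a1 (25.0 TPM) and Col5a3 (12.6 TPM) and library 63 for Col7a1 (3.11 TPM).

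In the cachectic mock diaphragm, library 35 was high for Col3a1 (209 TPM), Col4a5 (6.36 TPM) and Col28a1 (2.96 TPM), library 22 for Col11a2 (6.02 TPM), and library 20 was low for Col6a6 (4.43 TPM). In the non-cachectic mock diaphragm, library 64 was high for Col18a1 (33.4 TPM) and low for Col12a1 (0.993 TPM), and libraries 63, 68 and 66 were high for Col28a1 (1.33 TPM), Col4a4 (2.03 TPM) and Col5a3 (10.2 TPM), respectively. With rFibcd1, library 2 of the cachectic group was high for Col12a1 (4.95 TPM) and Col24a1 (2.58 TPM), and library 56 of the non-cachectic group for Col18a1 (21.2 TPM), Col24a1 (1.4995 TPM) and Col27a1 (2.04 TPM).

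The effect of the melanoma differed between muscles for 7 members in diaphragm against soleus by limma, with log2 differences of 1.95 for Col1a2, 1.802 for Col1a1, 1.59 for Col11a1, 1.26 for Col11a2, 1.24 for Col22a1, 0.86 for Col8a2 and 0.60 for Col13a1. It differed for 9 members in TA against soleus, by 1.94 for Col1a2, 1.66 for Col1a1, 1.56 for Col11a1, 1.51 for Col11a2, 1.35 for Col8a2, 1.29 for Col12a1, 0.90 for Col16a1, 0.82 for Col24a1 and 0.58 for Col13a1. All 16 values are positive, that is, the cachectic value lay lower relative to the non-cachectic one in soleus. Those of Col13a1 were favoured by its selection, since it entered the tests through the non-cachectic soleus alone.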

How the results depend on the processing

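Of 441 values of 72 named gene and comparison pairs under alternatives other than leaving out a library, 387 kept direction and side of the threshold, 43 lost and 10 gained significance, and 1 reversed, Col1a1 between rFibcd1 and mock with the non-cachectic melanoma, at -0.0355 once the clock-gene index entered the fit. The cause of these changes was not tested. Sequencing depth being unknown, low members such as Col28a1 and Col4a6 carry an unknown counting error.

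For the melanoma in the mock diaphragm (6 members called), 3 were called with no filter, 1 among high-state libraries and 11 with only the 2 groups compared (beside 835 and 6416 of all genes in the last 2, against 4526), and 3 (without library 61) to 9 (without library 11 of the cachectic rFibcd1 group) when each library was left out. With rFibcd1 in both groups (2 called), the count was 1 with no filter, 8 with median-ratio scaling, 4 with the state as a term, and 0 among high-state libraries, with only the 2 groups and with the Dunn test. Leaving out a library gave 1 to 6, being 6, 5 and 4 without libraries 1, 2 and 18 and 1 without libraries 3, 5, 46, 48, 57 or 58. For rFibcd1 with the non-cachectic melanoma (2 called), the count was 1 with no filter, with median-ratio scaling and with the state as a term, 0 among high-state libraries, with the clock-gene index and with the Dunn test, and 10 with only the 2 groups, beside 2279 of all genes (2210 higher) against 57. Leaving out a library gave 1 to 3, and 1 without libraries 47, 49, 56, 58, 62, 63, 64, 65 or 70. With the cachectic melanoma 4 were called among high-state libraries in place of 0, beside 804 of all genes against 7. In TA (6 called) leaving out a library gave 3 (library 65) to 7 (library 9), and in soleus 11 to 18.

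For diaphragm minus TA (0 called), 1 was called with no filter, 2 with the column number as a replicate block, and 0 to 2 when each library was left out (1 without diaphragm library 35, 2 without TA library 6). For diaphragm minus soleus (7 called), 3 were called with a pseudocount of 0.1. The block changed no other count by over 1.5 times. Within a muscle no paired analysis was possible because the columns carry no labelled replicate number and the groups share no number. Between muscles the column number served as the block above.

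Among high-state diaphragm libraries the log2 difference was -0.0863 for Col4a1/Col4a2 and 0.190 for Col6a1/Col6a2, neither past the threshold, and 0.102 for Col5a2/Col5a1, reversed in direction. With a pseudocount of 1, Col6a3/Col6a1 in soleus passed at 0.405. Leaving out each library gave -0.0792 to 0.00919 for Col3a1/Col1a1, -0.0505 to 0.0352 for Col5a2/Col5a1 and -0.130 to 0.0116 for Col6a3/Col6a1 in the diaphragm. In TA it gave -0.434 to -0.265 for Col1a1/Col1a2, -0.253 to -0.181 for Col4a1/Col4a2 and 0.342 to 0.412 for Col6a1/Col6a2, and in soleus -0.0519 to 0.0807 for Col1a1/Col1a2, -0.125 to 0.000445 for Col5a2/Col5a1, 0.0913 to 0.185 for Col6a1/Col6a2 and 0.255 to 0.388 for Col6a3/Col6a1.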
